A study of Arabidopsis thaliana with 16 samples.

Results

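The comparison described here asks at which genes the fusion EIN2C-EIN3DB was found on chromatin in air when EIN3 and EIL1 were present, and at which of them it was still found when both were mutated. Its members are the 841 peaks called in the Col-0 library titled air, of 3378 peaks in all 6 immunoprecipitated libraries of the study. They were set against 107 regions in which both ein3-1 eil1-1 air libraries had a peak, sharing at least 1 bp. A Col-0 peak that shared at least 1 bp with such a region is called kept, and any other is called missing. By this rule 74 Col-0 peaks were kept and 767 were missing.

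Ethylene is sensed by membrane receptors that, without the hormone, keep the kinase CTR1 active, and CTR1 holds the membrane protein EIN2 in check. When ethylene binds, the carboxyl-terminal part of EIN2 (EIN2C) is released and reaches the nucleus, where it acts on histone acetylation, and the transcription factors EIN3 and EIL1 build up and switch on response genes. EBF1 and EBF2, F-box proteins that mark EIN3 for breakdown, are themselves encoded by EIN3 target genes, so the pathway feeds back on itself.

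Chromatin immunoprecipitation followed by sequencing (ChIP-seq) used an EIN2 antibody on whole Arabidopsis thaliana seedlings, 3 days old, grown in the dark at 24 °C and treated for 4 h. All seedlings carried EIN2C-EIN3DB, by its name EIN2C joined to the DNA-binding part of EIN3. One group had it in Col-0, the wild type with intact EIN3 and EIL1 (1 library titled air, with its own input), and the other in ein3-1 eil1-1, a double mutant of EIN3 and EIL1 (2 air libraries that share 1 input). The study further holds ChIP libraries from 10 ppm ethylene and RNA libraries of 3 lines in ein3-1 eil1-1, EIN2C-EIN3DB, EIN2C-EIN3DBK245N and EIN2S645A, with 2 libraries a line, all after 4 h of air. Both Col-0 libraries titled air, ChIP and input, carry an agent label of ethylene, so the air treatment of Col-0 rests on the titles. The labels name neither the promoter of the transgene nor the number of transgenic lines nor the amount of fusion protein. Resident EIN2 can also carry the epitope, and no seedlings without the fusion are among the ChIP samples. Backgrounds therefore cannot be told apart from lines with different amounts of fusion protein.

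The Col-0 air library kept 3743192 tags after duplicates were removed, against 10515608 and 10073282 in the ein3-1 eil1-1 air libraries. Redundant tags made up 61%, 30% and 29% of these libraries. The deeper mutant libraries gave 252 and 255 peaks, and 42.5% of the replicate 1 peaks overlapped a replicate 2 peak. Col-0 has 1 library, so there is no replicate spread in Col-0 and no test between backgrounds. Intervals below are exact binomial (Clopper-Pearson, 95%) and cover counting error only. Pileup is the number of tags overlapping at a peak's summit. Fold enrichment is pileup over local input. Both are the authors' own values per peak, they are not scaled between lists, and values from different lists stand side by side with no change read from them.

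Of the Col-0 air peaks, 8.80% were kept (interval 6.97 to 10.9). The 841 Col-0 peaks far outnumber the 107 regions, so the share that could be kept was low from the start. Of the 767 missing peaks 51 met a peak of at least 1 ein3-1 eil1-1 library outside any shared region, and 716 met none. Taken singly, replicate 1 met 99 Col-0 peaks and replicate 2 met 100. In the reverse direction, 82 of the 107 shared regions (76.6%, interval 67.5 to 84.3) held a Col-0 peak and 25 did not. With replicate 2 or replicate 1 alone in place of the shared regions, 143 and 135 mutant peaks lacked a Col-0 peak. The 107 regions lay in 56 stretches when regions less than 10000 bp apart were joined, and the 74 kept peaks lay in 39.

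Kept peaks came mostly from the strong end of the Col-0 list. Ranked by the authors' −log10 p and cut into 4 groups of near-equal size, the strongest 211 peaks held 58 kept ones (27.5%, interval 21.6 to 34.0). The next 210 held 10 (4.76%), and the 2 weakest groups of 210 held 3 each (1.43%). Strength also went with finding a missing peak again in the Col-0 ethylene library: 80.4% of the missing peaks in the strongest group overlapped an ethylene peak, then 44.5%, 31.9% and 26.1%. Kept peaks were wider, with a median length of 214 bp against 122 bp, and 20 of 74 (27.0%) exceeded 500 bp against 24 of 767 (3.13%). Strength and width took part in whether a peak could be met again, so these are descriptions and not findings about the mutant.

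**Figure D1:**
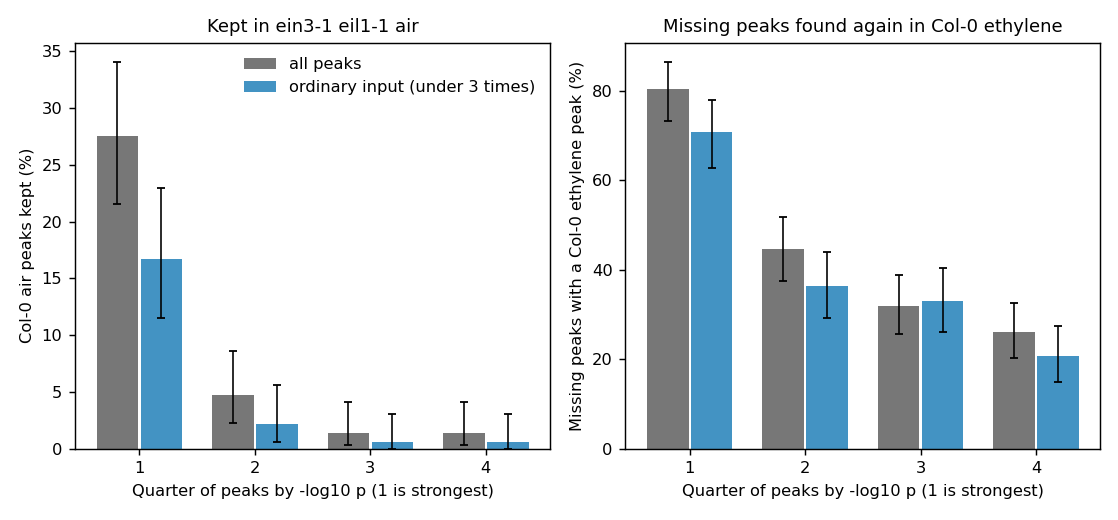
Left, percent of Col-0 air peaks kept in ein3-1 eil1-1 air, in 4 groups ranked by −log10 p. Right, percent of missing peaks that overlapped a Col-0 ethylene peak. Grey bars are all peaks, blue bars those with ordinary input, and error bars are exact 95% binomial intervals. The kept share went from 27.5% in the strongest group to 1.43% in the weakest.

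Local input differed between the classes. The input level behind each peak was worked out from its pileup and fold, and called high at 3 times the genome mean or more, as in repeats and other stretches that gather reads without an antibody. High input lay under 38 of 74 kept peaks (51.4%) and 83 of 767 missing peaks (10.8%). It also lay under 48 of the 107 shared regions. Between the ein3-1 eil1-1 air replicates, 48 of 60 replicate 1 peaks at high input (80%) overlapped a replicate 2 peak. At ordinary input 59 of 192 did (30.7%). The rule needs both replicates, so the difference between the classes is not separate from this agreement. Chromosome 3 held 26 of the kept peaks. Among them were 9 in the stretch chr3:14195595-14208427 and 5 in chr3:13589158-13592126 (TAIR10), all at high input, and 3 more at high input lay at the end of chromosome 2 (chr2:1893-10141). High-input kept peaks were seldom at a protein-coding gene (16 of 38), whereas 34 of the 36 kept peaks with ordinary input were, 30 of them overlapping the gene itself.

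**Figure D2:**
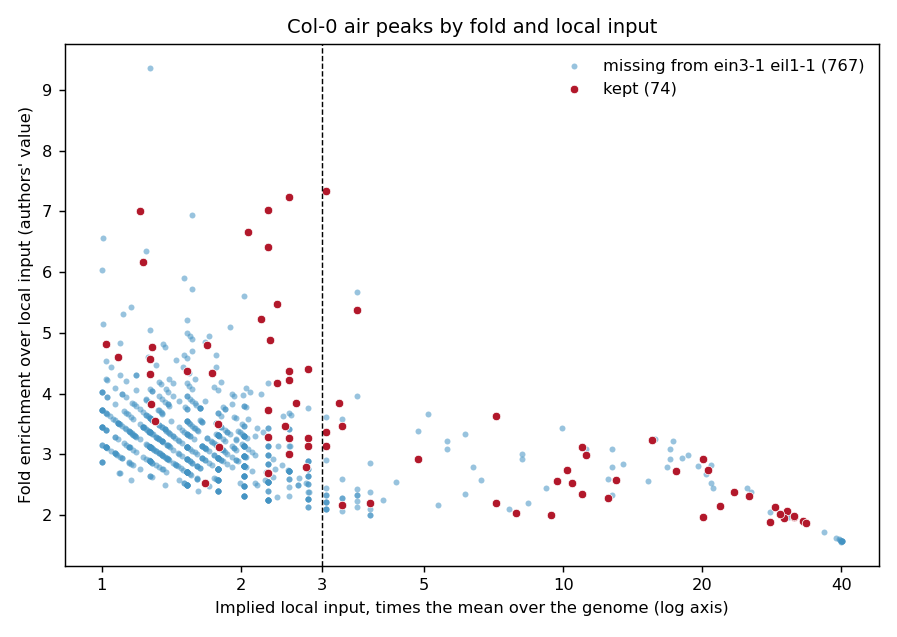
Each point is 1 Col-0 air peak, with implied local input on a log axis and the authors' fold enrichment on the vertical axis. Red points are the 74 kept peaks, blue points the 767 missing ones, and the dashed line marks 3 times the mean. Kept peaks at ordinary input reach folds of 2.52 to 7.23, and at high input folds fall to 1.87.

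With ordinary input alone, the kept share was 16.7% in the strongest 180 peaks, 2.22% in the next 180 and 0.556% in each of the 2 weakest groups. The 36 kept peaks there had a median Col-0 fold of 4.33 and the 684 missing ones 3.14. The highest fold was 4.81 in the ein3-1 eil1-1 air lists and 9.36 in the Col-0 air list, whose folds are not on 1 scale. Whether lower enrichment in the mutant libraries as a whole, from less fusion protein or a weaker precipitation, accounts for missing peaks was not tested.

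At the gene level, 851 of 27444 protein-coding nuclear genes (3.1%) lay at a Col-0 air peak, inside the gene or within 1000 bp of it. Of these, 44 (0.16% of all genes) lay at a kept peak and 807 (2.94%) at missing peaks only. The 807 divide into 740 genes with no peak of either ein3-1 eil1-1 air replicate, 61 with replicate peaks but no shared region and 6 with a shared region elsewhere at the gene. Shared regions lay at 61 genes in all (0.222%), 12 of them without a Col-0 peak. Without ein3-1 eil1-1 replicate 1 the kept genes numbered 71, and without replicate 2 they numbered 62.

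The strongest kept peak at a protein-coding gene lay over BT2. This gene, which encodes a BTB and TAZ domain protein, had a Col-0 peak of 2632 bp (chr3:17907832-17910463, TAIR10) with a pileup of 52 and a fold of 7.23. In the mutant the strongest peaks under it had pileups of 35 and 38 and folds of 3.5 and 3.12 in replicates 1 and 2, and BT2 also had peaks in both ein3-1 eil1-1 ethylene libraries. The same peak reached CEP3, a cysteine endopeptidase gene beside BT2. BT2 was thus marked in every ChIP library of the study, in 1 unbroken peak in Col-0 and in 3 to 5 separate pieces in the mutant.

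UBQ10, a polyubiquitin gene often used as a reference, was kept over its full width. Its Col-0 peak of 2115 bp (chr4:2718357-2720471) had a fold of 7.02 and a pileup of 46. The mutant peaks were 2033 and 2188 bp long with folds of 3.70 and 4.16 and pileups of 44 in both replicates. The polyubiquitin repeats are near-identical to those of other UBQ genes, so reads may be shared with them. The neighbour AGD13, an ARF-GAP domain gene, was reached by the same peak.

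Other strong kept peaks lay at genes of several kinds. RAP2.4, an AP2/ERF family transcription factor gene, had a Col-0 fold of 6.67 (chr1:29364732-29366035) and mutant folds of 2.63 and 3.07. GRP3S, a glycine-rich protein gene, had 7.00 with 3.14 and 2.95 in the mutant replicates. AT5G25280 had 6.42, with 2.31 and 3.66. TIP2, an aquaporin gene of the vacuolar membrane, had 5.23, with 3.60 and 3.04. DYL1, a dormancy-associated gene whose peak also reached AT1G28327, had 5.47, with 2.96 and 2.56. In each of these the Col-0 ethylene library had a peak too, with folds from 8.12 for GRP3S to 10.3 for AT5G25280. DYL1 and GRP3S were not kept when shared regions had to cover at least 50% of the Col-0 peak.

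PYK10, the beta-glucosidase gene of the ER body, had 3 Col-0 air peaks and all 3 were kept. The strongest spanned 2233 bp and also lay in AT3G09250, with a Col-0 fold of 6.17 and mutant folds of 3.60 and 3.31. PBP1, which encodes a PYK10-binding lectin, was kept as well, with a Col-0 fold of 4.81 and a pileup of 16. CAT3, a catalase gene, had 4 Col-0 peaks, and the 3 kept ones had folds of 4.80, 3.27 and 2.78. ERD15, a dehydration-responsive gene, had 2 kept peaks, the higher at a fold of 4.17, and PUB19, a U-box ubiquitin ligase gene, had 1 at 4.40. PBP1 and PUB19 were not kept with all lists limited to a −log10 p of at least 5. At GRP7, an RNA-binding protein gene under clock control, 1 of 3 Col-0 peaks was kept, with a fold of 3.29, while its highest peak, with a fold of 5.21, was missing.

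Of the 15 strongest kept peaks at protein-coding genes 6 lay in stretches of high input. Of the 15 strongest kept peaks anywhere 8 had no such gene within 1000 bp, all at high input, and the strongest of all was one of them (chr4:3061178-3061324, −log10 p 35.1, fold 7.33). AT2G01008 had 2 of them, with an implied input of 15.5 and 3.57 times the mean. AT3G41762 had 3, at 13.0 to 28.8 times, and AT2G07565 had 1, at 30.6 times. Fold over local input was lower at most of these, from 2.07 at AT2G07565 to 5.37 at AT2G01008, and the input of each lay above the limit of 3 times the mean. PAA2, a copper-transporting ATPase gene, and AT5G21940 shared the kept peak nearest to the limit of the rule, at chr5:7249233-7250021. It overlapped a shared region by 5 bp, only through the outer limits of that region, and no replicate 2 peak overlapped it. With all lists at a −log10 p of at least 5 neither gene was kept.

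EIN2 and EIN3 themselves were among the kept genes. At EIN2 (AT5G03280, chr5:787428-793356 in TAIR10) the Col-0 air library had 3 peaks between 791115 and 793005, with folds of 3.46, 3.27 and 2.17, and the last 2 were kept. The mutant libraries had 4 peaks each over the same stretch, with folds of 1.57 to 2.34. At EIN3 (AT3G20770, chr3:7260432-7263352) 1 of 3 Col-0 peaks was kept, at 7261701 to 7262046 with a fold of 4.38, and the mutant folds there were 2.03 and 1.62. Implied input at these peaks was 3.28 to 5.29 times the mean in the mutant libraries at EIN2, and 3.59 and 4.55 times at EIN3. In Col-0 air it was 2.04 to 3.31 times at EIN2 and 1.53 times at the kept EIN3 peak. The fusion holds EIN2 and EIN3 sequence, so tags from the transgene and from the resident genes cannot be told apart there. At an input under 3 times the mean in all lists, neither EIN2 nor EIN3 was kept. EIN3 was not kept either at a coverage of at least 50% or with all lists at a −log10 p of at least 5.

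**Figure D3:**
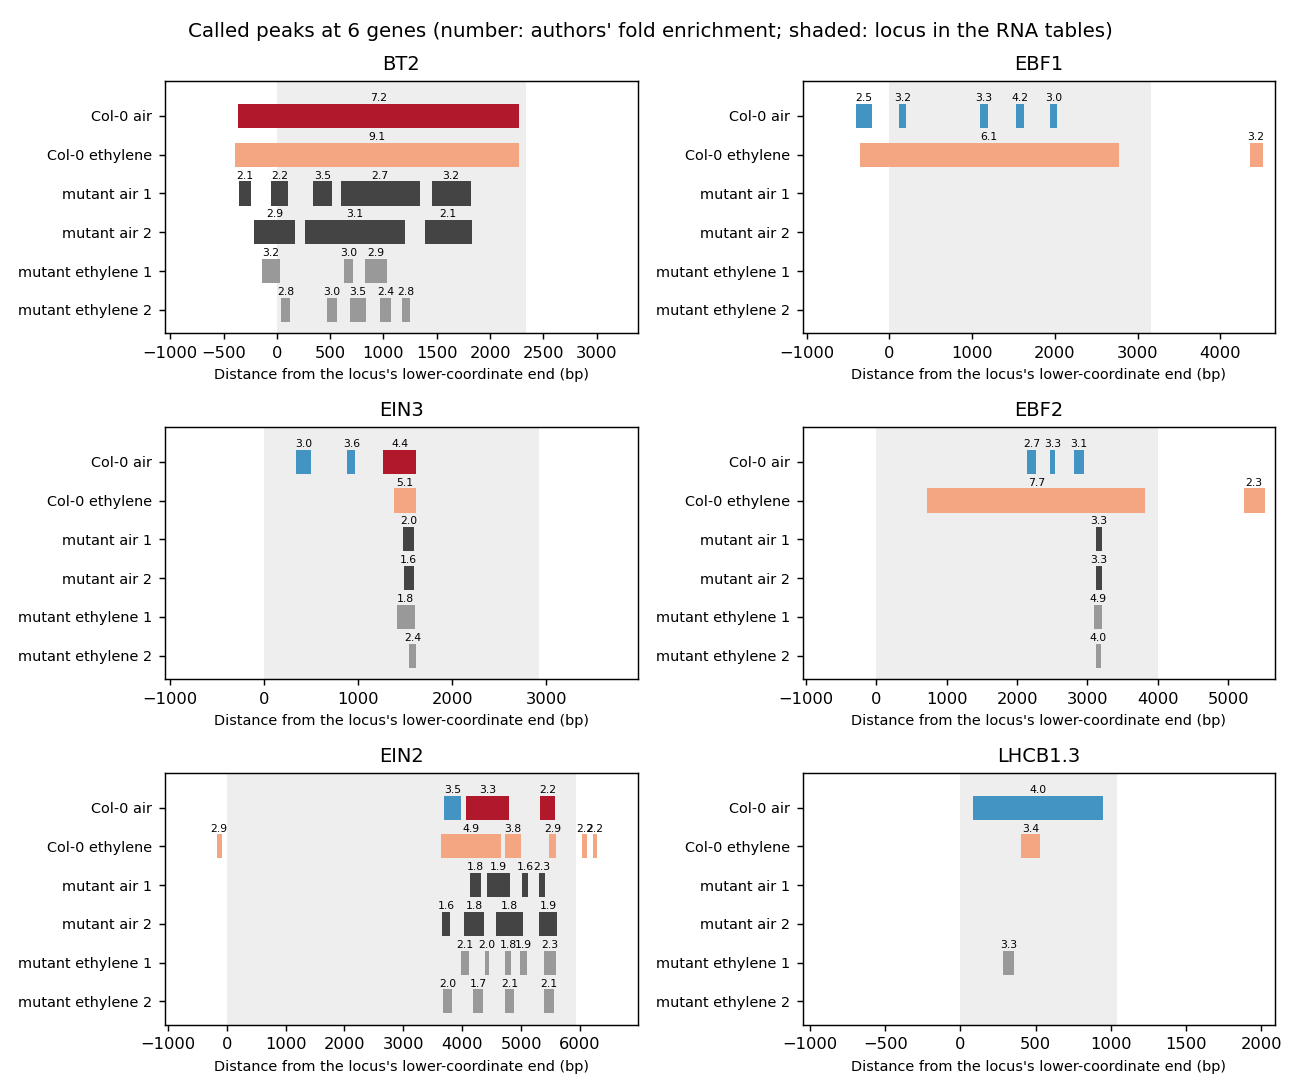
Peaks called in each of the 6 ChIP libraries at BT2, EIN3 and EIN2 (kept) and at EBF1, EBF2 and LHCB1.3 (missing), by distance in bp from the lower-coordinate end of the locus, which is shaded. Mutant stands for ein3-1 eil1-1, numbers 1 and 2 for replicates, and the number above each bar is the authors' fold. In the Col-0 air row red bars are kept and blue bars missing peaks. EBF1 has 5 Col-0 air peaks and none in the 4 mutant libraries, and EBF2 has 1 narrow mutant peak beside its 3 Col-0 air peaks.

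Known EIN3 targets were among the genes with Col-0 air peaks. Of 23 EIN3 target and ethylene-induced genes 7 lay at a Col-0 air peak (30.4%, against 3.1% of all protein-coding genes). They were EBF1, EBF2, EDF1, EDF2, EDF4, HLS1 and CTR1. None of the 7 was at a kept peak. Over all genes at a Col-0 air peak 5.17% were, so a count of 0 in 7 is near the background. Together they had 13 peaks with folds of 2.54 to 4.19, against a median of 3.12 over all Col-0 air peaks. The list was drawn up with earlier results of these data known, and the counts describe it without a test.

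EBF1 had 5 separate Col-0 air peaks, the highest at chr2:10848904-10849002 with a pileup of 17 and a fold of 4.19, and folds of 2.54 to 3.27 at the other 4. No peak was called at EBF1 in any of the 4 ein3-1 eil1-1 libraries. In the Col-0 ethylene library the same stretch was 1 peak of 3131 bp with a fold of 6.11. EBF2 had 3 Col-0 air peaks with folds of 2.71, 3.27 and 3.12, and none overlapped a mutant peak. A shared mutant region nevertheless lay 166 bp from the nearest of them, at chr5:8796134-8796229. Its pileups were 42 and 40 and its folds 3.30 and 3.28, and it was called again in both ein3-1 eil1-1 ethylene libraries at folds of 4.89 and 3.98. EBF2 is therefore missing by the overlap rule and yet had a narrow peak in all 4 mutant libraries.

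Of the EDF transcription factor genes, EDF1, EDF2 and EDF4 each had 1 missing peak, with folds of 2.91, 4.15 and 2.77. EDF3 had no Col-0 air peak and 1 peak in Col-0 ethylene. HLS1, which is needed for the apical hook of dark-grown seedlings, had 1 peak with a pileup of 12 and a fold of 2.93, and 6 peaks in Col-0 ethylene. CTR1 had 1 peak beside the gene with a fold of 3.61, on an implied input of 3.06 times the mean. No peak was called at EDF1, EDF2, EDF4, HLS1 or CTR1 in any ein3-1 eil1-1 library. Pileups at the 13 Col-0 air peaks of the list ran from 12 to 30, around the median of 16 over all Col-0 air peaks.

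Upstream in the pathway, 6 of 18 perception and signalling genes lay at a Col-0 air peak (33.3%, against 3.1% of all protein-coding genes). EIN2 and EIN3, whose sequence the fusion holds, lay at kept peaks and ETR1, CTR1, EBF1 and EBF2 at missing ones. Over all genes at a Col-0 air peak 5.17% were kept, so missing was the usual class. The receptor gene ETR1 had a single peak with a fold of 3.12. The receptor genes ERS1, ETR2, ERS2 and EIN4, and EIL1, had none in Col-0 air. Among the genes that EIN3 is known to repress, 2 of 5 lay at a Col-0 air peak (40%), the cold regulators CBF1 and CBF3. They had 3 missing peaks beside the genes, with folds of 2.33 to 2.73, the lowest median of any list with peaks. The CBF1 peak with the fold of 2.33 sat on high input, 3.57 times the mean.

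**Figure D4:**
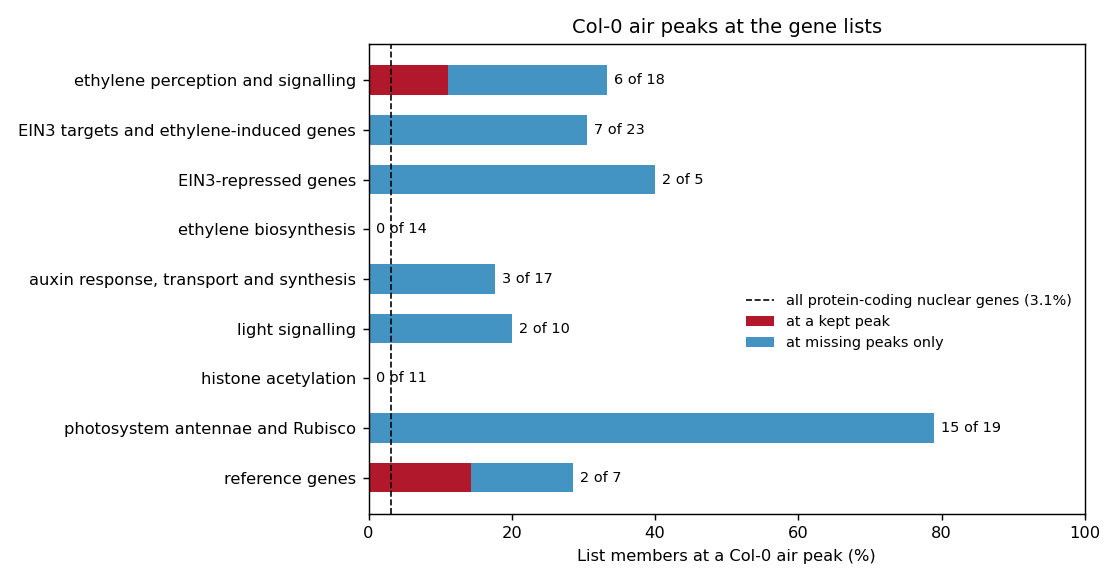
Percent of the members of each gene list that lay at a Col-0 air peak, red for kept and blue for missing peaks only, with the counts beside the bars. The dashed line is the 3.1% of all protein-coding nuclear genes. Photosystem antenna and Rubisco genes reach 15 of 19, all of them missing.

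The list with the largest share at Col-0 air peaks was that of photosystem antennae and the Rubisco small subunit. Of its 19 genes 15 lay at a Col-0 air peak (78.9%). None was kept and none had a peak in either ein3-1 eil1-1 air replicate, where over all genes at a Col-0 air peak 5.17% were kept and 87.0% had no peak of either replicate. These 2 counts are therefore near the background and are no result about these genes. The 23 peaks all lay in the genes, with folds of 2.26 to 6.95 and a median of 3.65. Light-harvesting complex genes (LHCB and LHCA) encode the proteins that bind chlorophyll around the photosystems, and RBCS genes encode the small subunit of the carbon-fixing enzyme.

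RBCS1A had the highest peaks of the list, with folds of 6.95, 5.73 and 3.76 at chr1:25048282-25048708 and 2 peaks beyond it, and pileups of 33, 27 and 18. LHCA4 had 4 peaks with folds of 2.92 to 5.42. Among LHCB1 copies, LHCB1.1 had folds of 3.68 to 5.14, LHB1B2 5.0 and 3.5, LHB1B1 4.22, LHCB1.3 3.95 and LHCB1.2 3.60. These copies are near-identical and can share reads, so the split between them is uncertain. LHCB5 stood at 4.25, LHCA1 at 3.65, LHCA3 at 3.49, LHCB6 at 3.39, LHCB3 at 2.95, LHCA2 at 2.92 and LHCB4.1 at 2.26. Of the 19 genes 7 had a peak in Col-0 ethylene. LHCB1.3 and LHCB5 had a narrow peak in 1 of the 2 ein3-1 eil1-1 ethylene libraries, with folds of 3.31 and 3.32.

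The other lists had 3 or fewer members at Col-0 air peaks, against the 3.1% of all protein-coding genes. Auxin genes had 3 of 17 members (17.6%) at missing peaks (IAA2, IAA3 and the efflux carrier gene PIN3, with folds of 2.71, 2.62 and 3.04). Light signalling had 2 of 10 (20%), the phytochrome-interacting factor genes PIF1 and PIF5, with folds of 3.36 and 2.88. Of the 14 ethylene biosynthesis genes reported here none lay at a Col-0 air peak. Of 11 histone acetyltransferase and deacetylase genes none did. Of 7 reference genes 2 lay at a Col-0 air peak (28.6%, a share close to that of the EIN3 targets): UBQ10 was kept and ACT7 had a missing peak with a fold of 2.99.

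Among missing peaks with no mutant peak in either replicate, the 15 at protein-coding genes with the highest −log10 p were of 2 kinds. Of the 15 strongest such peaks anywhere 5 had no gene, all at high input, the strongest at chr3:14201010-14201105 with a −log10 p of 31.95. The first kind at genes sat on high input: AT2G01021 at 15.8 times the mean, AT5G10340 at 18.1, AT2G07565 at 20.9, AT5G24060 and AT5G24070 at 20.4, AT3G29760 and AT3G29763 at 17.1, AT3G18280 and AT3G18282 at 16.8, AT2G08986 at 13.5 and 8.15, NUB, a zinc finger gene, at 12.7, AT2G01008 at 12.7 and AT3G41762 at 9.93. By other peaks some of these are kept genes: AT2G07565 had 2 of 4 Col-0 air peaks kept, AT2G08986 2 of 7, AT2G01008 2 of 3 and AT3G41762 4 of 5. PPR2, a pentatricopeptide repeat gene, had a peak of 925 bp beside it on 3.57 times the mean, with a fold of 5.68. The second kind sat on ordinary input and took up 2 loci among these 15 peaks. One was RBCS1A. The other was AT4G35610, with its neighbour CST, a receptor-like kinase gene, where the highest fold of the whole list was found (chr4:16899424-16900190, fold 9.36, pileup 38, implied input 1.27 times the mean).

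AT4G35610 had no peak in any ein3-1 eil1-1 library and a fold of 4.89 in Col-0 ethylene. Close to the limit of the rule, a missing peak at AT4G32020 lay 3 bp from a shared region and one at DYL1 43 bp from another, while another AT4G32020 peak was kept with an overlap of 38 bp. The class of a single peak at such a gene therefore rests on a few bases.

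Shared mutant regions without a Col-0 air peak were led by 4 places with no protein-coding gene within 1000 bp, starting at 14721995 and 16513549 on chromosome 1, 14223146 on chromosome 3 and 12885345 on chromosome 5. The other lay in the actin gene ACT2 (chr3:6476074-6476155), 82 bp long, with folds of 3.92 and 3.14 and pileups of 40 and 33. Of the 25 such regions 10 held a Col-0 ethylene peak and 5 a shared ein3-1 eil1-1 ethylene region.

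The ethylene libraries gave a readout that the rule did not use. Col-0 ethylene peaks lay at 1323 genes (4.82%). Of the kept Col-0 air peaks 73 of 74 (98.6%, interval 92.7 to 99.97) overlapped a Col-0 ethylene peak, against 332 of 767 missing ones (43.3%, interval 39.7 to 46.9). The gap held at ordinary input, with 35 of 36 kept and 266 of 684 missing peaks (97.2% and 38.9%). It ran beside the gap in strength, since kept peaks lie mostly in the strongest group, and within that group 80.4% of the missing peaks overlapped an ethylene peak. Regions shared by both ein3-1 eil1-1 ethylene libraries held 42 of 74 kept peaks (56.8%, interval 44.7 to 68.2) and 35 of 767 missing ones (4.56%, interval 3.20 to 6.29). At ordinary input they held 11 of 36 kept peaks and 1 of 684 missing ones (0.146%, interval 0.0037 to 0.812). Few such regions could be met at ordinary input, where 16 of 136 peaks of ein3-1 eil1-1 ethylene replicate 1 overlapped a replicate 2 peak, against 91 of 109 at high input. The Col-0 lists share genotype, antibody and shallow depth, and the mutant lists share genotype and antibody. These overlaps are therefore not independent of the backgrounds.

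RNA differences of the same genes come from the authors' deposited tables, which list genes that differ at least 2-fold between a line in ein3-1 eil1-1 and Col, with 1 pooled value per line. No RNA from the fusion in Col-0 or from the untransformed mutant is among the samples. The double mutation and the transgene therefore cannot be told apart. The Col RNA behind the folds is not among the samples either, so no label gives its age, growth or treatment. Of the 7 reference genes 1, GAPC2, is listed higher in the authors' deposited table for EIN2C-EIN3DB, at log2 2.04, and none lower. GAPC2 alone is also listed for EIN2C-EIN3DBK245N, at 2.03. For EIN2S645A 3 of the 7 are listed higher and none lower: GAPC2 at 2.73, UBC21 at 2.23 and ACT7 at 1.16. In the authors' deposited table for EIN2C-EIN3DB, 95 of the 807 genes at missing peaks only (11.8%) are listed higher and 143 (17.7%) lower, against 9.93% and 9.7% of all protein-coding nuclear genes. Of the 44 kept genes 4 are listed higher and 6 lower there, 6 higher and 3 lower in the authors' deposited table for EIN2C-EIN3DBK245N, and 8 higher and 7 lower in that for EIN2S645A. In the authors' deposited table for EIN2C-EIN3DBK245N the 807 genes divide into 91 higher and 79 lower, against 6.41% and 6.33% of all genes. In that for EIN2S645A they divide into 157 higher and 154 lower, against 11.8% and 13.9%. The 3 tables share the Col comparison, and genes at peaks were not matched to other genes by expression.

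The missing genes ran both ways by group. In the authors' deposited table for EIN2C-EIN3DB 6 of the 7 EIN3 targets with a missing peak are listed lower and none higher: EBF2 at log2 −3.30, HLS1 at −2.88, EDF4 at −1.61, EBF1 at −1.34, CTR1 at −1.26 and EDF1 at −1.17. Of the 16 members of that list without a Col-0 air peak 10 are also listed lower there and 1 higher. Of the 15 antenna and Rubisco genes with a missing peak, 10 are listed higher and 1 lower in the authors' deposited table, and of the 4 without a peak 2 (LHCB2.1 and LHCB2.2) are listed higher and 2 (RBCS1B and RBCS3B) lower. The highest are LHB1B1 at log2 9.59, LHB1B2 at 5.97 and LHCB1.1 at 5.66, and the lowest is RBCS2B at −1.24. The FPKM of these 3 highest in EIN2C-EIN3DB are 773, 6776 and 55.4, while LHCB1.3, with an FPKM of 9574, stands at 2.76. Col values were left out, so whether low RNA in Col lies behind the highest folds was not tested. As with the peaks, RNA reads may be assigned to the wrong LHCB1 gene, which leaves each of these folds uncertain. CBF1, with its missing peaks, stands at 3.41 in the authors' deposited table for EIN2C-EIN3DB, with an FPKM of 5.94, and is not listed for the other lines. CBF3, also with a missing peak, is listed for no line. CBF2, without a Col-0 air peak, stands at 1.71 for EIN2C-EIN3DB. Peaks in Col-0 that were missing from the mutant thus lay both at genes whose RNA was lower in the mutant line than in Col and at genes whose RNA was higher.

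**Figure D5:**
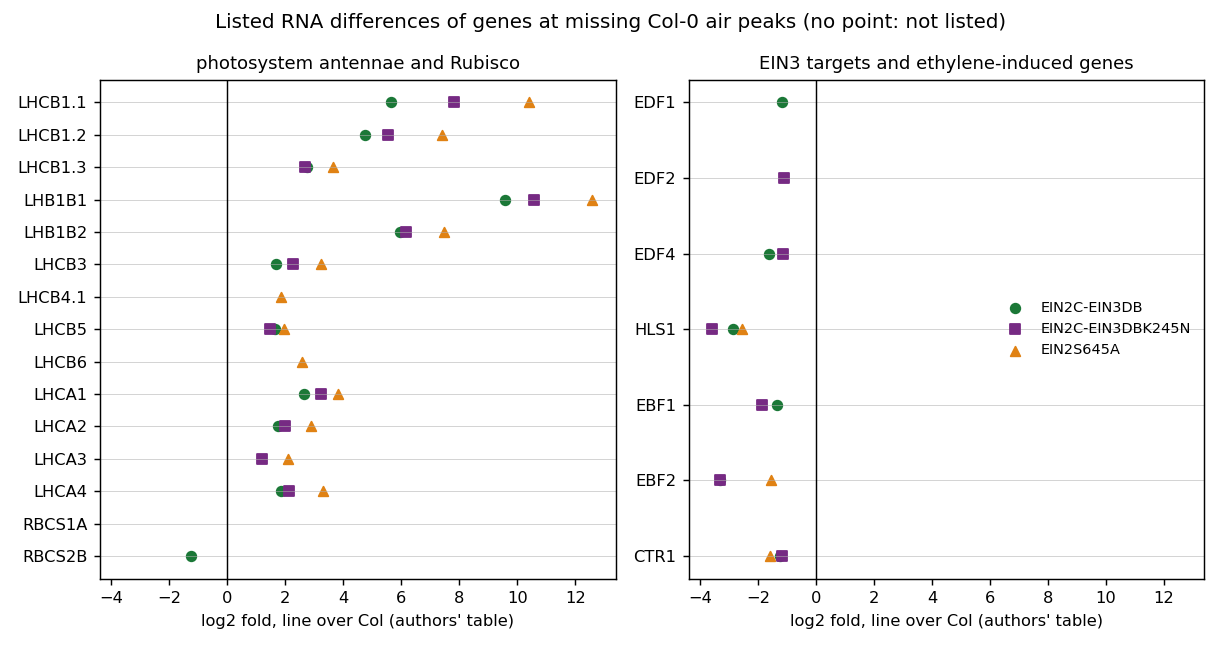
Log2 fold of each line over Col in the authors' deposited tables, for antenna and Rubisco genes (left) and EIN3 targets (right) that lay at missing Col-0 air peaks. Circles, squares and triangles are the 3 lines, and a gene with no symbol in a line is not listed there. All listed EIN3 targets stand below 0, and all listed antenna genes above 0, with RBCS2B at −1.24 as the exception on the left.

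Among kept genes, the authors' deposited table for EIN2C-EIN3DB lists CCL, a clock-regulated gene, at log2 2.68, GRP7 at 1.37 and BT2 at 1.32, and gives AT2G01023 an infinite fold. In the same authors' deposited table AT5G26150 stands at −3.82, EIN3 at −2.06, AT1G60200 at −1.59, AT3G26510 at −1.56, EIN2 at −1.44 and PBRP, a TFIIB-related gene, at −1.20. EIN2 and EIN3 values there may hold reads of the fusion. UBQ10, RAP2.4, TIP2, PYK10 and DYL1 are not listed in the authors' deposited table for that line, so they are not shown to differ at least 2-fold.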

How the data were processed

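Per the file headers, MACS2 2.1.0.20150603 was run by the authors on each ChIP library alone, with a p limit of 0.001 and a TAIR10 genome size of 119000000 bp. Each deposited peak has a pileup (a signal in tags), a fold over local input (a ratio) and a −log10 value for p and for q. The q values were not used. The lowest −log10 q was 0.335 in the Col-0 air list and 0.0306 in that of ein3-1 eil1-1 air replicate 2, so the lists hold peaks that a q limit would drop. Fragment lengths were 73 to 79 bp, near the tag size of 75 bp, and 1 tag was kept per position, so pileup could not pass 146 to 158 and the strongest peaks are compressed. BWA is named in the submitters' processing notes, without its role. RNA tables were made by the authors with Cuffdiff 2.2.1, per the submitters' processing notes, and the deposited tables hold FPKM values, log2 folds, p-values and q-values. The 3 columns of Col values in them were left out. In the EIN2C-EIN3DBK245N table the line comes first, per the file headers, so the sign of its folds was turned.

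Regions are replicate 1 peaks overlapping replicate 2 peaks by at least 1 bp, with their outer limits, so regions can overlap each other. Implied input is pileup plus 1, divided by fold, minus 1. Peaks were placed at protein-coding genes with a table of the TAIR10.1 assembly, which has no strand, and no coordinate of it is printed. All 124 list entries (9 lists, 116 genes) were found there, and 1 further gene of 2 lists is not reported here. TAIR10 coordinates are 1-based. Overlaps were computed with Python 3.11.15, pandas 2.3.3 and scipy 1.17.1, and tested on simulated peaks. No test between backgrounds was possible with 1 Col-0 library, and the labels do not say whether replicates were grown separately. Members and lists were chosen with earlier results of these data known. The genes named are those at the 15 kept peaks with the highest −log10 p among kept peaks at a protein-coding gene, at the 15 missing peaks so ranked that lie at such a gene and have no peak in either mutant air replicate, at the 5 shared regions with the highest mean fold that lack a Col-0 peak, and list members at peaks. Other kept genes were named after their values were seen. The alternatives were a stricter overlap, p or fold, either or 1 replicate, ordinary input, the strongest peaks and other gene windows.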

Additional observations from a re-analysis of the deposited data

How the results depend on the processing

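Kept peaks were fewer than missing ones under every alternative run. With 841 Col-0 peaks set against 107 regions this order was largely fixed by list length, so it is no sign of stability. Only the alternative with the 107 strongest Col-0 peaks sets lists of equal length side by side. The 74 kept peaks became 125 with a peak in either replicate, 42 at a Col-0 fold of at least 3, 48 with all lists at −log10 p of at least 5, 33 at ordinary input under 3 times the mean and 44 under 5 times, a limit chosen after seeing the data. The 767 missing peaks became 422 with Col-0 peaks at −log10 p of at least 5, 444 with all lists so limited and 445 at a fold of at least 3. Among only the 107 strongest Col-0 peaks 42 were kept and 65 missing, at 29 and 54 genes. The 44 kept genes became 86 with either replicate. The 807 genes at missing peaks became 415 and 428 at −log10 p of at least 5 (Col-0 alone and all lists), 469 at a fold of at least 3 and also 469 in gene bodies only. The 25 shared regions without a Col-0 peak became 38 at an overlap of 50%, 57 at a fold of at least 3, 13 with all lists at −log10 p of at least 5, 278 with either replicate and 53 with the strongest peaks. The 43.3% of missing peaks with a Col-0 ethylene peak became 55.5% and 57.7% at −log10 p of at least 5 (Col-0 alone and all lists), 39.0% at ordinary input and 86.2% with the strongest peaks, and the 98.6% of kept ones 100% in the latter 2.

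Leaving out 1 ein3-1 eil1-1 air library gave 99 to 100 kept and 741 to 742 missing peaks, 62 to 71 kept and 780 to 789 missing genes, 95% to 96.0% and 41.8% with a Col-0 ethylene peak, and 135 to 143 regions without a Col-0 peak. Of 75 named genes with a Col-0 peak, 11 went from kept to missing at an overlap of 50%, DYL1, GRP3S, PUB19 and EIN3 among them, and 13 with all lists at −log10 p of at least 5 (PAA2, AT5G21940, PUB19, AT1G60200, AT2G01023, AT3G26510, AT3G26512, CAT1, EIN3, CCL, PBP1, JAL31 and AT4G32020). EIN2 and EIN3 went from kept to missing at ordinary input. EBF2 alone went from missing to kept when peaks within 300 bp of a region counted, an alternative added after seeing the data. The cause of these changes was not tested beyond the fewer peaks that each limit leaves. No paired analysis was possible because Col-0 has 1 air library and the results come from no test.

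The shallow Col-0 library, the lone input of the mutant replicates and duplicate removal limit what a missing peak can say. A missing peak is one that was not called, not one shown to be absent.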

Other observations

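Several genes outside the lists carried many Col-0 air peaks and no shared mutant region. They were picked after their values were seen, among 42 genes with at least 3 Col-0 air peaks, 25 of which had no shared region. Of all 851 genes at a Col-0 air peak, 740 had no peak of either replicate and 61 had replicate peaks but no shared region. Lacking a shared region was thus less common among genes with many peaks, and is not particular to those named here. HSC70-1, which encodes a cytosolic heat shock cognate protein, had 7 peaks inside the gene with folds of 2.59 to 3.44 and pileups of 12 to 21, no peak in the air mutant libraries, and 1 peak of 2473 bp in Col-0 ethylene. The nitrate reductase genes NIA1 and NIA2 had 7 and 4 peaks, with folds up to 4.33 and 6.56. NIA1 met a single mutant peak in replicate 2 (fold 2.43). NIA2 had 2 peaks in replicate 1 and 1 in replicate 2 that did not share a base. The authors' deposited table for EIN2C-EIN3DB lists both as higher than in Col, with log2 folds of 1.48 and 1.75. ASN1, an asparagine synthetase gene, and STP1, a sugar transporter gene, had 5 peaks each, with folds up to 4.47 and 4.08, and ABI1, a phosphatase gene of abscisic acid signalling, had 3 with folds up to 4.13. None of these 3 genes had a mutant peak in air. In Col-0 ethylene STP1 had 1 peak of 3255 bp with a fold of 9.34.

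Members of 2 gene families were in different classes. Over all genes at a Col-0 air peak 5.17% were kept, so missing was the usual class and the split is no result about these families. UBQ10 was kept, while the polyubiquitin genes UBQ11, UBQ4 and UBQ14 had missing peaks with folds up to 4.95, 3.64 and 3.14 and no mutant peak in air. Only 1 of the 3 peaks at UBQ4 lay in the gene itself, and its strongest peak also lay at the neighbour GER3. UBQ3 had 2 missing peaks, with folds of 4.95 and 2.39, and a replicate peak elsewhere at the gene. The UBQ genes share repeats, so reads can be placed at the wrong copy. DYL1 had 1 of 3 peaks kept, while its relative AT2G33830 had 4 missing peaks with folds of 3.06 to 3.97 and a mutant peak in replicate 2 alone (fold 2.28).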
